A study of Macaca fascicularis with 44 samples.

Results

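The 8 genes KDR, EGFL7, CDH5, TIE1, PLVAP, MMRN1, MYCT1 and MEF2C were followed as an endothelial set, taken by name from the 21834 genes of the count table. All 8 had a row, and all 8 had counts in the cells labelled Blood cells. They were measured in 3682 single cells of 9 cynomolgus monkey (Macaca fascicularis) embryos, all wild type, made by sperm injection into oocytes and kept in culture from the blastocyst stage. There was no treatment and no embryo grown in utero among the samples. Libraries came from embryonic day 16 (E16, 7 libraries of 2 embryos), E18 (5), E20 (6), E21 (5), E22 (6), E23 (6), E24 (2) and E25 (5), with 1 embryo for each day after E16, so that day and embryo cannot be told apart. RNA was taken from cells of dissected embryonic bodies, from which extraembryonic tissue had been removed per the labels' protocols. The authors' annotation gives each cell 1 of 12 classes and 1 of 26 fine clusters. Their class names are used here as spelled, including the abbreviations CTB, EVT and STB, in common use for cytotrophoblast, extravillous trophoblast and syncytiotrophoblast, and EXMC, which stands beside a separate class named Extraembryonic Mesoderm. Despite the wording of the protocols, the annotation names 549 cells CTB, 566 EVT and 474 Extraembryonic Mesoderm. Cells of extraembryonic classes thus make up much of these data.

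Endothelial cells line blood vessels. In the primate conceptus the earliest of them form outside the embryo proper, in extraembryonic mesoderm, close to the first blood cells, and in vertebrates some endothelium gives rise to blood. Signals from VEGF and angiopoietin ligands reach these cells through receptor tyrosine kinases, and contacts between neighbouring cells are held by a cadherin. KDR is the main signalling receptor for VEGFA, and is also carried by mesoderm before vessels form. TIE1 is a receptor-like kinase that works with TEK, the angiopoietin receptor. EGFL7 and MMRN1 are secreted proteins, EGFL7 a matrix-bound factor of growing vessels and MMRN1 (multimerin) a protein stored in platelets and endothelium. CDH5 (VE-cadherin) is the cadherin of endothelial junctions, and PLVAP forms the diaphragms of endothelial pores and caveolae. MEF2C is a transcription factor of heart, muscle, neurons and endothelium. MYCT1 was named as a MYC target and is known mainly from endothelium and blood stem cells.

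The libraries held between 22 and 96 cells and between 4393315 and 30568931 counts, and a cell had a median of 110458 counts (871 to 2831708). Levels are counts scaled to the total counts of the same cells, in the usual unit CPM, pooled over the cells of a class unless a library or cell is named, and intervals are exact 95% Poisson intervals that cover counting error only. Gene lengths were not used, so levels are compared between cells and never between genes. All 96 cell numbers occur in more than 1 library, so a cell is named by its library and its number. Libraries 26 and 27 (149 cells), whose title and time labels give different days, enter the pooled class levels and no comparison of days or libraries. Within library 35 (E20), cells 29 to 32 each held 7 or 8 of the 8 genes. Cell 29 is annotated STB and cells 30, 31 and 32 Extraembryonic Mesoderm, all 3 of fine cluster 22. The profiles of cells 29 to 32 correlated at 0.815 to 0.931 (median 0.855) among themselves over genes. With the other cells of the library, of several classes, they correlated at 0.322 to 0.833 (median 0.663), so the ranges overlap. Cell 29 held 1189 of the 1445 KDR counts and 1000 of the 6687 CDH5 counts of STB, and cell 30 held 764 of the 6720 KDR counts of Extraembryonic Mesoderm, so levels and fits of those classes are given with and without them.

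The class named Blood cells held 17 cells, 0.462% of all cells, from 13 libraries of 5 embryos (1 cell at E18, 5 at E20, 6 at E22, 4 at E23 and 1 at E25). Its cells carried genes of both the endothelial and the blood lists. Of 31 further endothelial genes in the table all were detected in it, and 18 of the 26 that reached 10 CPM were at least 4-fold higher there than in all other cells. Over all genes that reached 10 CPM in either group, 4.98% passed this fold. Among the examples, RAMP2, a receptor partner protein, had 926 CPM in Blood cells and 35.005 CPM in other cells, and CD34 had 475 CPM in Blood cells and 7.87 CPM in other cells. Of 14 erythroid genes in the list only 8 were in the count table, and only 1 of them reached 10 CPM in Blood cells or in other cells. Of the 8 erythroid genes measured, 6 had no count in the class, among them HBZ, KLF1, GATA1 and ALAS2, and a count of 0 there allows up to 0.644 CPM. Low erythroid RNA was thus not particular to this class. All 12 blood progenitor genes were detected in the class. Of the 10 that reached 10 CPM, 9 were at least 4-fold higher, for example TAL1 with 30.2 CPM in Blood cells and 0.201 CPM in other cells. Both megakaryocyte genes that reached 10 CPM and 4 of 5 macrophage genes were also at least 4-fold higher. The leukocyte gene PTPRC was found in 3 of the 17 cells, all from the E20 embryo. SPI1 was found in 4 and MYB in 5 of the 17 cells, while PF4, a platelet chemokine, was found in 13 and TAL1, a factor of both blood and endothelium, in 11. Most cells of the class thus carried endothelial RNA together with some gene of the blood lists. Most erythroid genes had no count in the class and were under 10 CPM in other cells too.

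Each member was highest in Blood cells of the 12 classes, and all 8 were at least 4-fold higher there than in all other cells together. Over all genes of at least 10 CPM in either group, 4.98% passed the same fold. The class was formed by the authors from the RNA of these cells, so these values describe it and are no test. KDR had 398 CPM in Blood cells (interval 380 to 416) and 49.0 CPM in other cells. The KDR difference was 8.12-fold. TIE1 had 96.8 CPM in Blood cells (interval 88.0 to 106) and 1.23 CPM in other cells, a difference of 78.8-fold.

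EGFL7 had 1023 CPM in Blood cells (interval 995 to 1053) and 86.7 CPM in other cells, 11.8-fold apart. MMRN1 had 251 CPM in Blood cells (interval 237 to 266) and 1.71 CPM in other cells, 147-fold apart. A single cell, that of E18, held 43.9% of the MMRN1 counts of the class, and cell 32 of library 8 held 37.99% of its MEF2C counts. For the other members the largest share of 1 cell was 17.4 to 28.6%. CDH5 had 417 CPM in Blood cells (interval 399 to 436) and 58.9 CPM in other cells, 7.08-fold apart. PLVAP had 205 CPM in Blood cells (interval 193 to 219) and 2.13 CPM in other cells, 96.4-fold apart.

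MEF2C had 163 CPM in Blood cells (interval 151 to 175) and 1.66 CPM in other cells, 98.1-fold apart. MYCT1 had 55.1 CPM in Blood cells (interval 48.6 to 62.3) and 0.588 CPM in other cells, 93.7-fold apart. The class took 0.810% of all counts, but 54.6% of the counts of MMRN1, 44.5% of MEF2C, 44.04% of PLVAP, 43.3% of MYCT1 and 39.1% of TIE1. Its share was 8.79% for EGFL7, 6.21% for KDR and 5.46% for CDH5. These 17 cells thus took between 39.1 and 54.6% of the counts of 5 members and under 9% of those of the other 3.

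**Figure D1:**
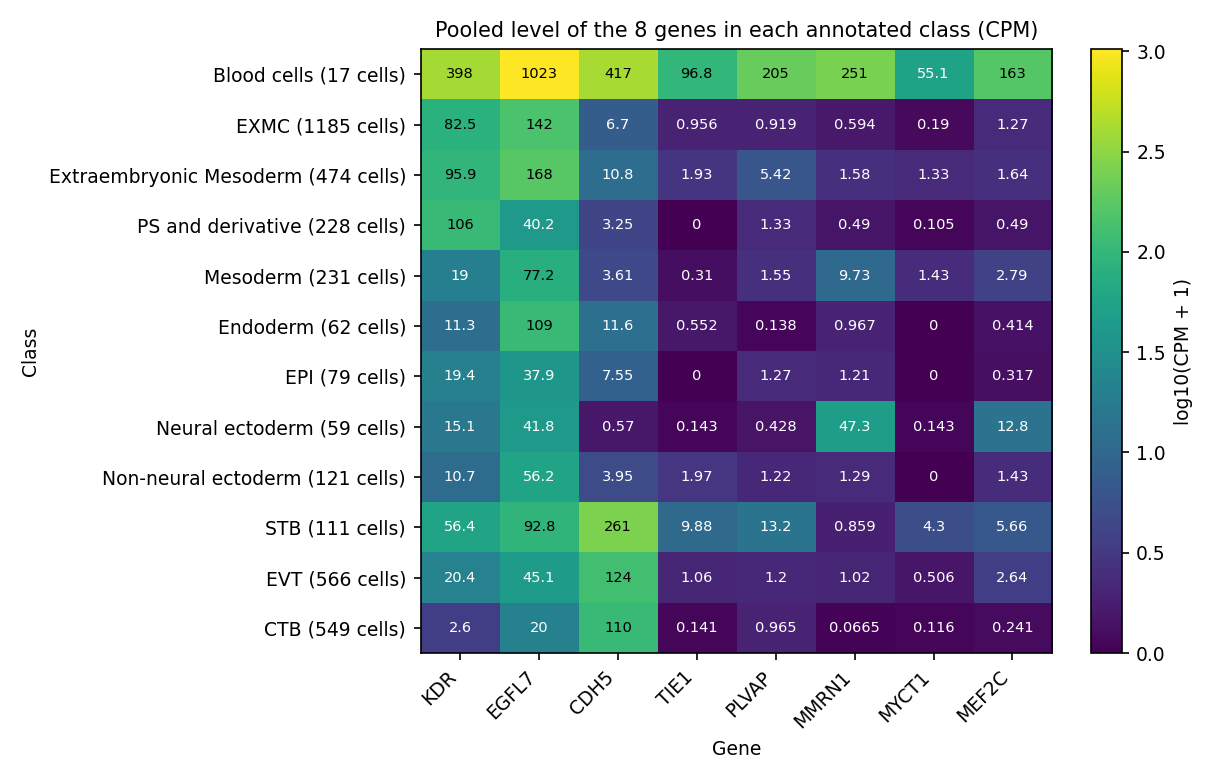
Pooled level in CPM of each endothelial gene (columns) in each of the 12 classes (rows), with colour on a log scale and the value printed in each cell. Blood cells hold the highest value of every column, KDR is next highest in PS and derivative (106 CPM), EGFL7 in Extraembryonic Mesoderm (168 CPM), and CDH5 in STB, EVT and CTB (261, 124 and 110 CPM).

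The class was compared with the other cells of the same embryo in each of its 5 embryos. KDR had 909 CPM at E18, 164 CPM at E20, 511 CPM at E22, 517 CPM at E23 and 760 CPM at E25 in Blood cells, against 61.5, 37.0, 21.2, 9.25 and 94.0 CPM in the other cells of those embryos. EGFL7 had 1574, 1115, 1003, 768 and 1114 CPM in Blood cells of E18, E20, E22, E23 and E25, against 89.2, 93.4, 71.1, 57.7 and 133 CPM in the other cells. For both genes the lowest embryo of Blood cells lay above the highest embryo of other cells. TIE1 had 35.4, 81.4, 77.8, 142 and 173 CPM in Blood cells, and no more than 2.92 CPM in the other cells of any embryo. CDH5 was between 311 CPM (E20) and 944 CPM (E18) in Blood cells, and between 3.84 CPM (E22) and 149 CPM (E20) in the other cells. The smallest CDH5 difference was 2.09-fold, in the E20 embryo, which was also the embryo with the highest CDH5 outside the class. PLVAP, MMRN1 and MEF2C were higher in Blood cells in 5 of 5 embryos too. MYCT1 was higher in E22 (112 CPM, against 0.672 CPM in other cells), E23 (54.5 CPM, against 0.178 CPM) and E25 (193 CPM, against 0.496 CPM). In E20 MYCT1 had 1.03 CPM in Blood cells and 1.60 CPM in other cells, and in E18 it had 142 CPM in the 1 Blood cell and no count in the other cells. MYCT1 was thus the member whose pattern did not hold in the E20 cells.

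Within the class 10 of the 17 cells held counts of all 8 members, and every cell held at least 4. Outside the class 113 of 3665 cells (3.08%) held 4 or more. After each cell was thinned to 5000 counts, 15 of 17 Blood cells and 10 of 3557 other cells still held 4 or more. The difference was thus also there at equal depth, which describes the authors' class and is no test. Median totals were 181789 counts in Blood cells and between 71638 (EVT) and 176375 (EPI) in the other classes.

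The 17 cells were not alike. The 11 cells of E22, E23 and E25 all had counts of KDR, EGFL7, CDH5, PLVAP, MMRN1, MYCT1 and MEF2C, and 9 of the 11 had TIE1. In these 11 cells KDR ranged from 385 to 1300 CPM, CDH5 from 229 to 707 CPM and PLVAP from 147 to 791 CPM, and none had a count of PTPRC or of SPI1, a transcription factor of myeloid cells. LYVE1, a receptor of lymphatic and embryonic endothelium and of macrophages, was present in the 4 cells of E23 (132 to 629 CPM) and in no other cell of the class. PF4 was found in 5 of the 6 E22 cells (up to 470 CPM), in 3 of the 4 E23 cells (up to 202 CPM) and not in the E25 cell, and TAL1 in 4, 2 and 0 of them. The trophoblast marker genes summed to 2618 CPM in the E23 cells, 671 CPM in the E22 cells and 454 CPM in the E25 cell, and their part in the other values was not tested. The later cells thus shared 7 of the 8 members, and differed in LYVE1, PF4, TAL1 and trophoblast RNA.

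The E20 cells were of more than 1 kind. Cell 17 of library 39 had 990 CPM of KDR, 6244 CPM of EGFL7, 3317 CPM of CDH5, 567 CPM of TIE1, 618 CPM of PLVAP and 846 CPM of MEF2C. It had no count of MMRN1, MYCT1, PTPRC, SPI1, MYB or PF4. The other 4 E20 cells all had SPI1 (35.4 to 148 CPM), MYB, a progenitor factor (6.54 to 266 CPM), and PF4 (248 to 569 CPM). In those 4 cells CDH5 was at 0 in libraries 36 and 38, at 20.6 CPM in library 37 and at 414 CPM in library 39. KDR was at 3.27, 295, 134 and 18.3 CPM in the cells of libraries 36, 37, 38 and 39, and EGFL7 was at 560 to 1298 CPM in all 4. EGFL7 was thus present in all 4 while CDH5 varied from 0 to the pooled level of the class, and RAMP2 was at most 13.1 CPM in them, against 5804 CPM in cell 17 of library 39. The E18 cell had the highest MMRN1 of all, 2022 CPM, with 944 CPM of CDH5, 500 CPM of PF4, 283 CPM of GP6, a platelet collagen receptor, and no RAMP2. No test was made between these cells, since each embryo gives 1 to 6 of them.

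**Figure D2:**
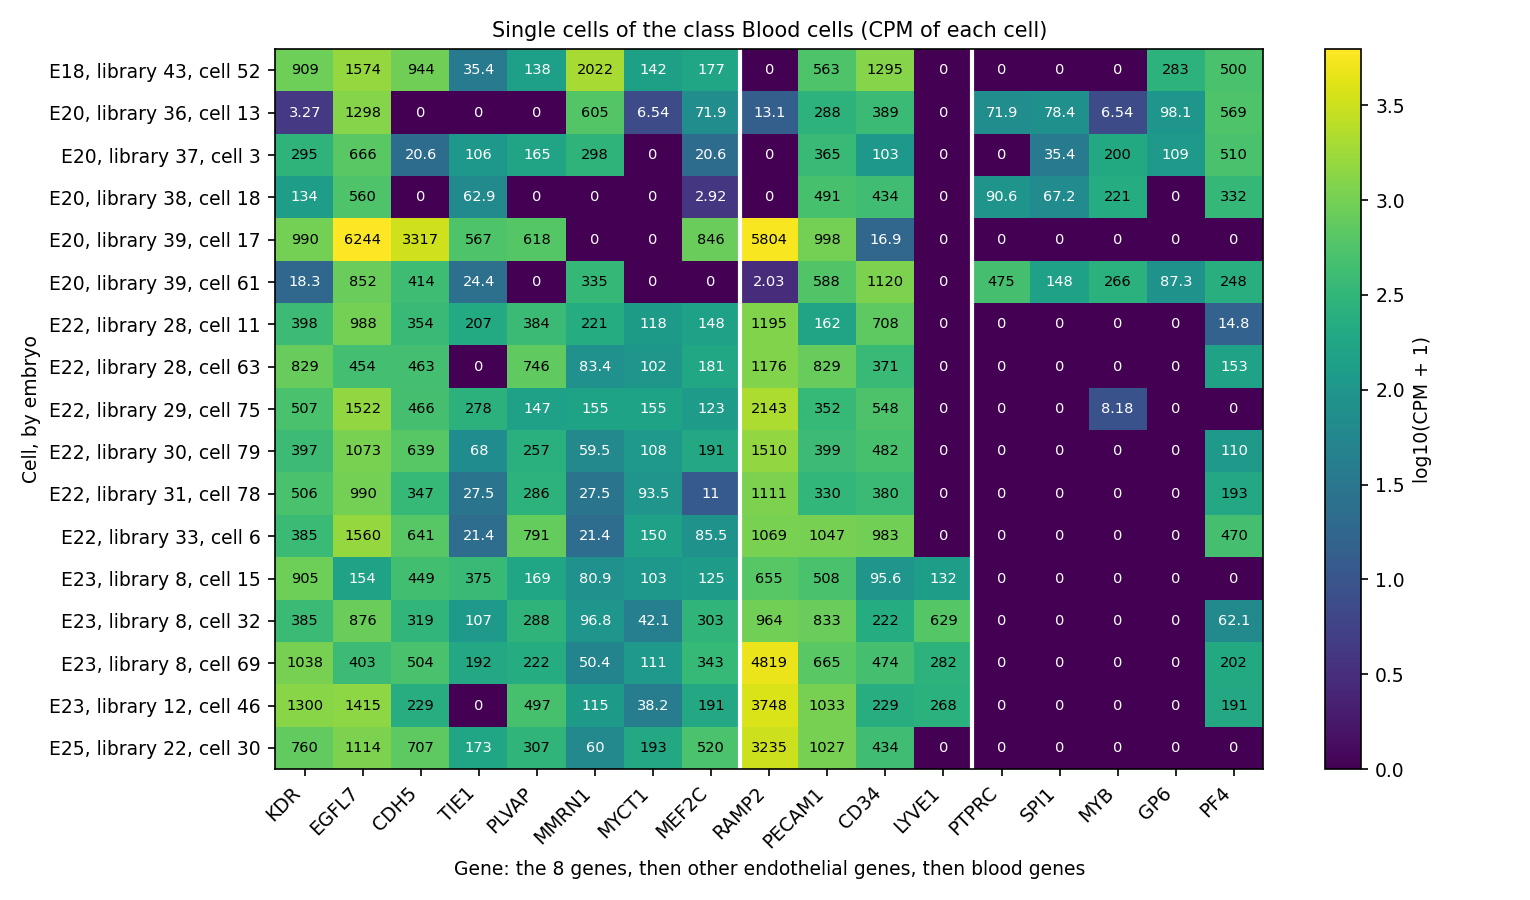
Level in CPM of the 8 endothelial genes and 9 marker genes (columns) in each of the 17 cells of the Blood cells class (rows, named by embryo, library and cell number), with colour on a log scale. The 11 cells of E22, E23 and E25 are filled across the endothelial columns, and SPI1, MYB and PF4 occur together in 4 of the 5 E20 cells.

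Outside Blood cells KDR was highest in mesenchymal and streak classes. Pooled levels were 106 CPM in PS and derivative, 95.9 CPM in Extraembryonic Mesoderm and 82.5 CPM in EXMC. STB had 56.4 CPM, but 10.8 CPM without cell 29 of library 35. EVT, EPI, Mesoderm, Neural ectoderm, Endoderm and Non-neural ectoderm lay between 10.7 and 20.4 CPM, and CTB was lowest with 2.603 CPM. In libraries with at least 10 cells of a class, KDR had a low, median and high value of 19.8, 58.2 and 283 CPM in Extraembryonic Mesoderm (18 libraries), 3.41, 73.0 and 170 CPM in EXMC (28), 0, 10.4 and 113 CPM in EVT (21) and 0, 1.91 and 12.4 CPM in CTB (21). The library ranges of all classes next to each other in the order of medians overlapped, for KDR and for each other member. Extraembryonic Mesoderm lay wholly above CTB for KDR. In such sums, fewer cells with a gene and less of its RNA per cell cannot be told apart.

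EGFL7 was more evenly spread, with 168 CPM in Extraembryonic Mesoderm, 142 CPM in EXMC, 109 CPM in Endoderm, 92.8 CPM in STB (22.6 CPM without cell 29), 77.2 CPM in Mesoderm and 20.01 CPM in CTB, the lowest class. Library values had a low, median and high of 71.9, 135 and 368 CPM in Extraembryonic Mesoderm, 24.5, 141 and 251 CPM in EXMC, 1.79, 35.2 and 329 CPM in EVT and 5.68, 16.1 and 64.6 CPM in CTB. The levels in Extraembryonic Mesoderm lay above every CTB library. CDH5 had the opposite arrangement. Its pooled level was 261 CPM in STB (239 CPM without cell 29), 124 CPM in EVT and 110 CPM in CTB, and at most 11.6 CPM in each class that is neither trophoblast nor Blood cells. By library CDH5 had a low, median and high of 28.995, 97.8 and 310 CPM in EVT and 11.7, 84.7 and 193 CPM in CTB, against 0.188, 2.605 and 93.0 CPM in Extraembryonic Mesoderm and 0.373, 5.02 and 26.9 CPM in EXMC. The highest Extraembryonic Mesoderm value was library 35 of E20. Outside the 17 cells, the endothelial cadherin and the VEGF receptor were thus highest in different classes.

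Among the fine clusters, the EVT class split for KDR. EVT cluster 18 (87 cells) had 123 CPM of KDR, while the other 4 EVT clusters had between 5.92 and 18.1 CPM. CDH5 went the other way, with 44.4 CPM in cluster 18 and 64.1 to 166 CPM in the other EVT clusters. EVT cluster 7 (196 cells) held the most TIE1 (9.85 CPM), PLVAP (6.08 CPM) and MEF2C (10.7 CPM) of the EVT clusters. Cell 60 of library 12 and cell 68 of library 11, both of that cluster, held 34 and 20 of the 98 TIE1 counts and 18 each of the 245 MEF2C counts of all EVT cells. In EXMC, KDR lay between 17.2 CPM (cluster 9) and 137 CPM (cluster 4).

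Pooled by class, the other 5 members were low outside Blood cells, with 2 exceptions. Within EVT, cluster 7 lay above its class for TIE1, PLVAP and MEF2C, as given above, and some single cells named below were higher still. The first was Neural ectoderm, where MMRN1 had 47.3 CPM (interval 42.4 to 52.7) and MEF2C 12.8 CPM (interval 10.3 to 15.8). MMRN1 was found in 35.6% of 59 Neural ectoderm cells, with a median of 111271 counts a cell, against 1.28% of 549 CTB cells, with a median of 169543 counts. In the 3 libraries with at least 10 such cells, all of the E22 embryo, MMRN1 had 19.9, 88.1 and 39.998 CPM and MEF2C had 4.96, 19.6 and 11.6 CPM. Mesoderm, with 6 of its 7 such libraries from the same embryo, had 9.73 CPM of MMRN1 and 2.79 CPM of MEF2C. KDR and CDH5 were low in Neural ectoderm (15.1 and 0.570 CPM), so MMRN1 there was not accompanied by the cadherin.

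The second exception was the 4 cells of library 35. STB had 9.88 CPM of TIE1, 13.2 CPM of PLVAP, 4.30 CPM of MYCT1 and 5.66 CPM of MEF2C, but 0.630, 0.168, 0.0420 and 0.420 CPM without cell 29. Extraembryonic Mesoderm had 5.42 CPM of PLVAP, 1.93 CPM of TIE1, 1.33 CPM of MYCT1 and 1.58 CPM of MMRN1, but 2.14, 0.506, 0.119 and 0.402 CPM without cells 30, 31 and 32. CDH5 in Extraembryonic Mesoderm was 10.8 CPM with them and 4.39 CPM without them. Cell 29 alone had 1804909 counts, with 659 CPM of KDR, 1019 CPM of EGFL7, 554 CPM of CDH5, 132 CPM of TIE1 and 186 CPM of PLVAP, levels in the range of the Blood cells. It also held 5701 CPM of COL3A1, a collagen of mesenchyme, and 218 CPM of PAGE4, a trophoblast gene that had 4275 CPM in STB as a whole. Whether these profiles come from 1 kind of cell was not tested.

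**Figure D3:**
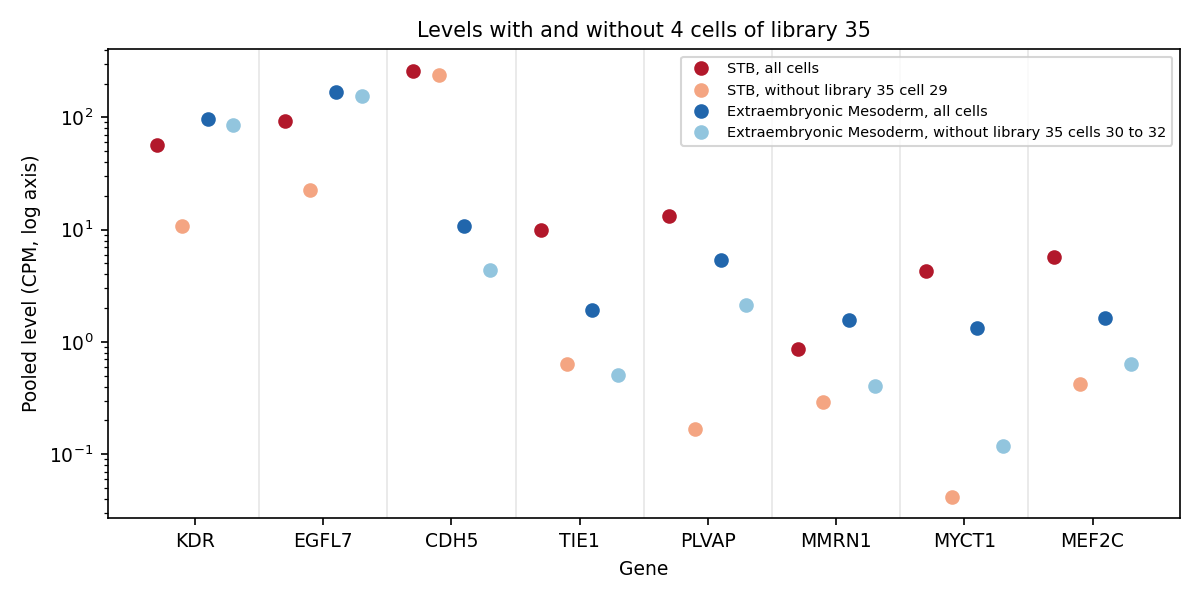
Pooled level in CPM (log axis) of each endothelial gene in STB and in Extraembryonic Mesoderm, with and without cells 29 to 32 of library 35. In STB, TIE1 is at 9.88 CPM with cell 29 and 0.630 CPM without it, while CDH5 is at 261 CPM with it and 239 CPM without it.

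Only 9 cells outside Blood cells had 7 or 8 members, and 4 of them were the cells of library 35. Among the other 5, cell 28 of library 17 (EXMC, E25) had all 8, with 652 CPM of KDR, 756 CPM of CDH5, 282 CPM of MMRN1 and 1260 CPM of RAMP2. Cell 60 of library 12 (EVT, E23) had 450 CPM of KDR, 464 CPM of CDH5 and 225 CPM of TIE1. Cell 68 of library 11 (EVT, E23) had 113 CPM of KDR, 635 CPM of CDH5 and 676 CPM of RAMP2. Cell 7 of library 38 (EVT, E20) had 21.9 CPM of KDR, 468 CPM of EGFL7, 91.0 CPM of MMRN1, 120 CPM of MEF2C, no RAMP2 and 14.3 CPM of PTPRC. That cell gave 87.4% of the MMRN1 counts and 44.5% of the MEF2C counts of EVT. The last, cell 40 of library 30 (Extraembryonic Mesoderm, E22), had at most 2.67 CPM of 6 members and is a deep cell of 750069 counts.

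Classes were compared within libraries, with the library as a term in 1 fit of edgeR's quasi-likelihood test over 14599 genes and Benjamini-Hochberg adjustment. The p-values set a difference against the spread between libraries and are no test of the classes themselves, since the authors' classes may rest on the same RNA, and libraries of 1 embryo share that embryo. Between Extraembryonic Mesoderm and EXMC none of the 8 members passed an adjusted p of 0.05, where 12.9% of all genes did. At an unadjusted p under 0.05, 1 member (KDR) passed. KDR differed by a log2 fold change of 0.77 ± 0.34 (SE; 95% interval 0.10 to 1.44; adjusted p = 0.132). EGFL7 differed by 0.28 ± 0.25 (interval -0.21 to 0.78) and CDH5 by 0.37 ± 0.43 (interval -0.47 to 1.22). The KDR value depended on the embryo: it was 1.71 without E21 (adjusted p = 0.00158) and -0.12 without E20. MMRN1 had -0.37 ± 0.98 and, without cells 30 to 32 of library 35, -6.92 (adjusted p = 0.0455). Its pooled level was then 0.402 CPM in Extraembryonic Mesoderm and 0.594 CPM in EXMC, and the library median was 0 in both classes. Cell 47 of library 35 held 30 of the 97 MMRN1 counts of EXMC, so this value rests on few counts. Other genes of the vessel lists did differ: 6 of 26 further endothelial genes passed, 5 of them higher in Extraembryonic Mesoderm, led by APLNR, the apelin receptor (log2 2.56 ± 0.42), FLI1 (2.46 ± 0.55) and TEK (1.06 ± 0.23), while CD34 was lower (-1.33 ± 0.45). Of 16 angiogenic ligands and receptors 7 passed and all were higher, among them the TEK ligands ANGPT2 (4.28 ± 0.50) and ANGPT1 (2.68 ± 0.31) and the VEGF co-receptors NRP2 (2.33 ± 0.26) and NRP1 (1.46 ± 0.18). The median over the angiogenic list was 1.04, against 0.01 over all genes.

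Between EVT and CTB 4 of the 8 members passed, all higher in EVT, where 35.2% of all genes passed. KDR was higher by a log2 fold change of 2.80 ± 0.48 (adjusted p = 8.2e-07) and by 1.62 ± 0.54 when EVT cluster 18 was left out (adjusted p = 0.0137). Leaving out cluster 18 also left no E25 library with enough EVT cells. EGFL7 was higher by 1.44 ± 0.27 (adjusted p = 1.24e-05). MEF2C was higher by 3.68 ± 0.83 (adjusted p = 0.000238), at levels that had a low, median and high of 0, 0 and 33.4 CPM in EVT libraries and 0, 0 and 1.66 CPM in CTB libraries. MEF2C was thus not detected in most libraries of either class, and 1 cell (cell 7 of library 38) held 44.5% of its EVT counts. TIE1 was higher by 2.95 ± 1.19 (adjusted p = 0.0471), which did not pass without E23 (2.12, adjusted p = 0.301), without E25 (adjusted p = 0.0864), without E20 (adjusted p = 0.0519) or without cluster 18 (adjusted p = 0.0710). CDH5 differed by 0.19 ± 0.22 (interval -0.24 to 0.62; adjusted p = 0.539). PLVAP, MMRN1 and MYCT1 had values of 0.07 ± 0.75, 2.83 ± 1.39 and 1.82 ± 1.30 and did not pass.

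Further vessel genes were also higher in EVT than in CTB, in a contrast where 35.2% of all genes passed. Of 26 endothelial genes 13 passed, 12 of them higher in EVT, with APLNR (5.01 ± 0.36), FLI1, an ETS factor (4.91 ± 1.22), the adhesion molecule PECAM1 (4.39 ± 0.27), ERG, another ETS factor (4.03 ± 0.65), SOX17 (3.63 ± 0.93) and the VEGF receptor FLT1 (3.28 ± 0.31) as the largest. Of 16 angiogenic genes 11 passed and 9 were higher. Mesenchymal genes moved with them: 10 of 10 were higher in EVT, and their summed level had a low, median and high of 249, 3305 and 22841 CPM in EVT libraries and 140, 723 and 3824 CPM in CTB libraries. Their part in the KDR and EGFL7 differences was tested only by leaving out cluster 18.

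Between EVT and Extraembryonic Mesoderm 4 of the 8 members passed, where 42.7% of all genes did. CDH5 was higher in EVT by 3.11 ± 0.38 (adjusted p = 5.06e-11) and by 4.05 ± 0.39 without the cells of library 35. KDR was lower in EVT, at -2.89 ± 0.39 (adjusted p = 5.74e-10), and EGFL7 was lower, at -2.17 ± 0.29 (adjusted p = 1.05e-09). Without E20 KDR had -1.56 (adjusted p = 0.0326) and EGFL7 -0.96 (adjusted p = 0.0966), so 1 embryo moved both values by more than 1.5 times. TIE1 was lower, at -2.20 ± 0.86 (adjusted p = 0.0343), but had -0.45 ± 1.13 without the cells of library 35 (adjusted p = 0.782) and 2.00 without E20. PLVAP, MMRN1, MYCT1 and MEF2C had -1.62 ± 0.73, -1.29 ± 0.97, -1.84 ± 1.02 and 0.26 ± 0.73 and did not pass. Of 26 further endothelial genes 12 passed, 5 higher and 7 lower in EVT, a share near the background. PECAM1 (4.88 ± 0.39), the gap junction gene GJA5 (4.60 ± 0.53) and ESAM, a junction molecule (4.53 ± 0.36), were higher in EVT, while ROBO4 (-4.67 ± 1.46), the ETS factor ETV2 (-3.73 ± 0.45) and the nitric oxide synthase NOS3 (-3.33 ± 0.72) were lower.

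**Figure D4:**
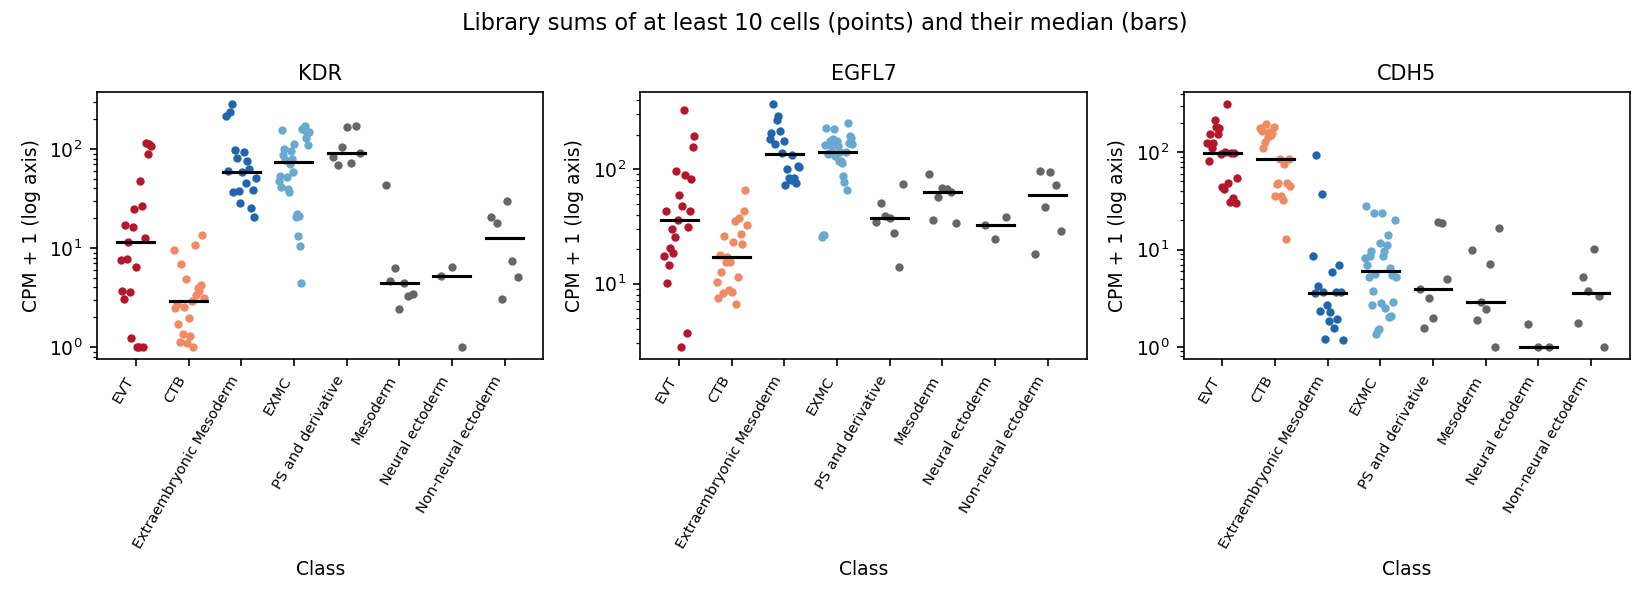
Level of KDR, EGFL7 and CDH5 in libraries with at least 10 cells of a class, as CPM + 1 on a log axis, 1 point a library, with bars at the medians. The classes are EVT, CTB, Extraembryonic Mesoderm, EXMC, PS and derivative, Mesoderm, Neural ectoderm and Non-neural ectoderm. For KDR, EVT spans 0 to 113 CPM and CTB 0 to 12.4 CPM, and for CDH5 the EVT and CTB libraries (28.995 to 310 CPM and 11.7 to 193 CPM) overlap.

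Each class with enough libraries was also set against the mean of the other 7. In CTB 3 members passed (background 34.1%): KDR (-4.04 ± 0.77) and EGFL7 (-2.69 ± 0.29) were lower and CDH5 was higher (2.90 ± 0.61). In EVT 2 passed (31.1%): CDH5 was higher (3.12 ± 0.62) and EGFL7 lower (-1.04 ± 0.28). In EXMC 2 passed (28%): KDR (1.58 ± 0.34) and EGFL7 (1.12 ± 0.23) were higher. In Extraembryonic Mesoderm 2 passed (24.2%): KDR (2.46 ± 0.35) and EGFL7 (1.44 ± 0.24) were higher. Neural ectoderm had 1 (3.18%), MEF2C (5.34 ± 1.52, adjusted p = 0.0307). Mesoderm (4.73%), Non-neural ectoderm (5.21%) and PS and derivative (1.0%) had 0 of 8 in edgeR's test. Neural ectoderm and PS and derivative each entered with 3 libraries of 1 embryo. PS and derivative had 7 libraries of at least 10 cells, but libraries without a 2nd class were left out. Its KDR value was 2.70 ± 0.78. At an unadjusted p under 0.05 MEF2C passed in Mesoderm (adjusted p = 0.206), and KDR (adjusted p = 0.0673) and EGFL7 (adjusted p = 0.505) in PS and derivative. These fits could not give a usable error for genes that were at 0 in whole classes, which took in MMRN1 and MYCT1 in every class and others in part.

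Development was followed as the slope of log2 level per day over libraries of agreeing labels, with edgeR's quasi-likelihood test. Libraries of 1 embryo are not independent, so these p-values are too small. With counts summed per embryo, edgeR called no member in any of the 5 trends, although 5 member slopes had an unadjusted p under 0.05 (EGFL7 over all cells, EGFL7 and CDH5 in CTB, KDR and CDH5 in EVT). With limma-voom and the embryo as a block 1 member slope passed, EGFL7 in EXMC (0.21, adjusted p = 0.0406). Over all cells 2 of 8 members passed (background 18.5%). EGFL7 rose by 0.15 ± 0.04 a day (adjusted p = 0.00394), with library medians of 34.02, 97.3, 102, 130, 86.2, 66.3, 59.7 and 146 CPM at E16, E18, E20, E21, E22, E23, E24 and E25. The slope rested on the low E16 libraries, and without them it was 0.04 (adjusted p = 0.652). MEF2C rose by 0.38 ± 0.13 a day (adjusted p = 0.0364), and by 0.22 (adjusted p = 0.266) when the Blood cells class was left out. It also did not pass without library 8 of E23 (0.30, adjusted p = 0.0884) or library 22 of E25 (0.36, adjusted p = 0.0825), which hold Blood cells, nor without any 1 of 6 E16 libraries.

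In EVT 2 of 3 tested members rose (background 6.88%). KDR had library medians of 4.62, 8.57, 2.69, 62.4 and 107 CPM at E18, E20, E23, E24 and E25, and a slope of 0.52 ± 0.13 (adjusted p = 0.0155). EGFL7 had medians of 15.0, 26.9, 52.5, 36.1 and 156 CPM on the same days, and a slope of 0.39 ± 0.11 (adjusted p = 0.0260), which did not pass without library 17 or 22 of E25 or library 42 of E18 (adjusted p = 0.0651, 0.0721 and 0.0504). The 3 E25 libraries, with 88.9, 107 and 110 CPM of KDR, lay above every library up to E23. Cluster 18 made up 11 of 15, 14 of 14 and 10 of 10 EVT cells in libraries 16, 17 and 22 of E25. Without its cells no E25 library kept 10 EVT cells, so that fit ran from E18 to E24 only. In it KDR had a slope of 0.38 ± 0.20 (adjusted p = 0.409) and EGFL7 of 0.37 ± 0.16 (adjusted p = 0.275). These slopes cover other days than the main ones, and a change within the other EVT clusters up to E25 was not tested. The summed level of the mesenchymal genes in EVT had medians of 935, 776, 6526, 9442 and 22441 CPM at E18, E20, E23, E24 and E25, and 10 of 10 of them rose. CDH5 had a slope of -0.15 ± 0.07 and did not pass, though it did without library 11 of E23 (-0.20, adjusted p = 0.0346). Of 11 further endothelial genes tested in EVT, edgeR called none.

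In CTB 2 of 3 tested members changed (background 3.36%). CDH5 fell by 0.24 ± 0.05 on the log2 scale a day (adjusted p = 0.00503): its libraries had 177 CPM at E16 (1 library), a median of 125 CPM at E18 and 159 CPM at E20, then 46.2 CPM at E23, 31.6 CPM at E24 (1 library) and 47.5 CPM at E25. All CTB libraries of E16 to E20 (109 to 193 CPM) lay above all of E23 to E25 (11.7 to 84.7 CPM). The CTB fine clusters also differed, with 176 CPM of CDH5 in cluster 12, 74.9 CPM in cluster 0 and 51.7 CPM in cluster 14. The part of these clusters in the slope was not tested. EGFL7 rose by 0.25 ± 0.06 a day (adjusted p = 0.0246), with a median of 10.5 CPM at E23 and 31.5 CPM at E25, and did not pass without library 17 of E25 (adjusted p = 0.0700). KDR had a slope of 0.07 ± 0.13.

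In Extraembryonic Mesoderm 2 of 4 tested members fell (background 2.12%). KDR had 217 CPM in the 1 library of E18 and medians of 88.0, 44.9 and 43.6 CPM at E20, E21 and E22, a slope of -0.70 ± 0.16 (adjusted p = 0.0196). EGFL7 had 181 CPM at E18 and medians of 239, 98.4 and 92.7 CPM at E20, E21 and E22, a slope of -0.51 ± 0.11 (adjusted p = 0.0180). The medians of both genes at E21 and E22 lay below those of E20, and the KDR libraries overlapped (27.8 to 92.6 CPM at E21, against 35.8 to 283 CPM at E20). Later days had no library with 10 such cells. Pooled by embryo, KDR had 289 CPM at E18, 46.1 CPM at E22, 19.8 CPM at E23 (14 cells) and 258 CPM at E25 (20 cells), and EGFL7 had 182, 97.2, 117 and 123 CPM, so the E25 cells lay above those of E22 for both genes. Summed per embryo, the slopes were -0.05 and -0.12 (adjusted p = 0.954 and 0.757). In EXMC none of the 4 tested members passed (background 1.73%), and at an unadjusted p under 0.05 EGFL7 alone did. KDR in EXMC differed sharply between embryos without a steady direction. It had medians of 46.5, 92.9, 38.3, 78.4, 15.9, 158 and 143 CPM at E16, E18, E20, E21, E23, E24 and E25, and the 6 libraries of E23 (3.41 to 20.99 CPM) lay below every library of the other embryos.

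The slopes of Extraembryonic Mesoderm and EXMC were compared in 1 fit. The difference passed for 2 of 7 tested members (background 2.54%), KDR at -0.81 ± 0.23 a day (adjusted p = 0.0398) and EGFL7 at -0.63 ± 0.16 (adjusted p = 0.0236). Extraembryonic Mesoderm had libraries from E18 to E22 and EXMC from E16 to E25, and with the embryo as a term neither passed (adjusted p = 0.381 and 0.560). Between EVT and CTB 0 of 5 tested members passed in edgeR's test (background 0.288%), and KDR and PLVAP had an unadjusted p under 0.05: KDR differed by 0.42 ± 0.19 a day (interval 0.05 to 0.78) and EGFL7 by 0.13 ± 0.12 (interval -0.11 to 0.37).

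**Figure D5:**
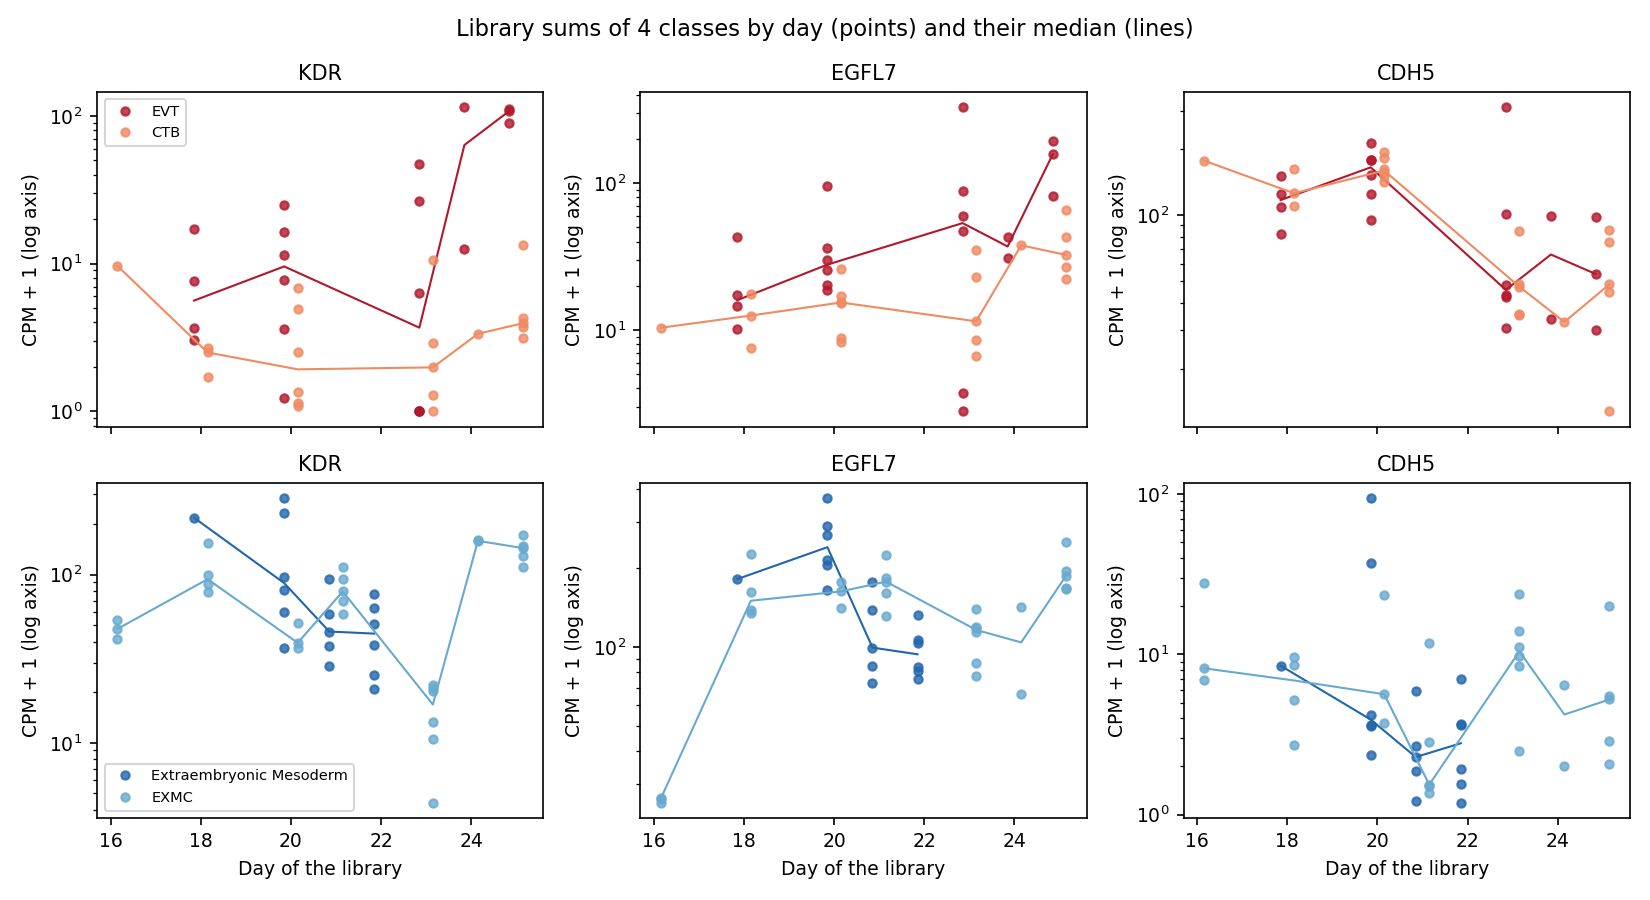
Level of KDR, EGFL7 and CDH5 in each library with at least 10 cells of the class, as CPM + 1 on a log axis, against embryonic day, for EVT and CTB and for Extraembryonic Mesoderm and EXMC. CDH5 in CTB is at 109 to 193 CPM up to E20 and at 11.7 to 84.7 CPM from E23, and KDR in EXMC is lowest at E23.

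Relatives of the members had their own arrangements. FLT1, the VEGF receptor next to KDR, had 258 CPM in Blood cells, 1000 CPM in EVT, 868 CPM in STB and 95.04 CPM in Extraembryonic Mesoderm, so it was highest in trophoblast. FLT4, the VEGFC receptor, had 19.7 CPM in Blood cells and at most 0.937 CPM in any other class. TEK, the partner of TIE1, had 86.0 CPM in Blood cells, 168 CPM in Extraembryonic Mesoderm and 86.4 CPM in EXMC, unlike TIE1. MMRN2 had 41.4 CPM in Blood cells, 5.35 CPM in STB and at most 0.756 CPM elsewhere. MEF2A had 56.2 CPM in Blood cells and 48.7 CPM in Extraembryonic Mesoderm, and MEF2D had 0.858 CPM in Blood cells.

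The genes most like each member were sought over 46 sums of a class and an embryo among 9554 genes, by Pearson's r of log2(CPM + 1). The Blood cells class is not among these sums, which share libraries and depth, and the values are descriptions. KDR was most like VIM (0.80), ETS1 (0.77) and LRRC75A (0.76). EGFL7 was most like RECK (0.83), PKIA (0.83) and SHFL (0.82). CDH5 was most like ADAP2, IGSF8 and CAPN6 (0.88 to 0.89). TIE1 and PLVAP were both most like KISS1 (0.61 and 0.67) and had RAMP2 among their 3 (0.59 each). MMRN1, MYCT1 and MEF2C had no gene above 0.59, at mean levels of 1.91, 0.483 and 1.74 CPM over these sums.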

How the data were processed

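The measurement was RNA of single cells, in 44 libraries from cynomolgus monkey embryos. The submitters' processing notes name cutadapt 1.15, STAR 2.6.0a and HTSeq 0.10.0, tools for trimming, aligning and counting reads. The table deposited by the authors holds raw counts with no normalization, and the deposited annotation gives class, fine cluster and embryo of each cell. No label or file header names the genome build, the treatment of doublets or whether a count is a read or a molecule.

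Counts were summed per class, embryo and library with Python 3.11.15, and levels are CPM of those sums. Sums of at least 10 cells entered the tests. Tests used edgeR 4.0.16 (filterByExpr, TMM normalization, quasi-likelihood F test) in R 4.3.3, with Benjamini-Hochberg adjustment over all genes tested and a threshold of 0.05. Day trends needed at least 6 libraries over 3 days, and class contrasts had the library as a term. The edgeR day trend on EVT sums and the edgeR contrast of EVT over CTB were tried on simulated data. The slope differences and the DESeq2 and limma fits were not. Each depth behind a level is given with its interval, and shares were also taken after thinning each cell to 5000 counts.

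Libraries 26 and 27 (149 cells) were left out of groups. Genes named beyond the 8 are the relatives of the members and, of each further list, at most the 6 largest changes past the threshold. The members and lists were chosen with earlier results of these data known. The alternatives were DESeq2 1.42.0 size factors and its Wald test, limma 3.58.1 voom with embryos as blocks, no filter on low counts, at least 20 cells per sum, the library code as a term, sums per embryo, the embryo as a term, and leaving out E16, each library, each embryo or EVT cluster 18 in the contrasts. Chosen after seeing the data were the EVT trend without cluster 18, fits and levels without cells 29 to 32 of library 35, the trend without the Blood cells class and the mean of single cells. Promoters and protein sequences were not analysed here.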

Additional observations from a re-analysis of the deposited data

Results flagged for a closer look

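In 53 groups of 4 to 10 libraries of 1 day, 13 held a library far from the others for a member described above, and over all members and classes tested 38 of 102 did. The rule, the largest gap over the range, flags about 1 in 20 groups of normally distributed values. These levels are skewed and often near 0, so that rate does not apply to them and an excess over chance cannot be read from the flags. KDR in CTB had 9.62 CPM in library 13 of E23 (other libraries 0 to 1.91 CPM) and 12.4 CPM in library 17 of E25 (others 2.15 to 3.26 CPM). EGFL7 in EVT had 94.6 CPM in library 38 of E20 (others 17.6 to 35.2 CPM) and 329 CPM in library 11 of E23 (others 1.79 to 86.9 CPM). CDH5 in library 11 of E23 had 310 CPM in EVT (others 29.7 to 100.0 CPM) and 84.2 CPM in CTB (others 34.2 to 47.5 CPM). The EVT values of library 11 came mostly from cell 68, with 172 counts of EGFL7 (781 CPM) and 140 of CDH5 (635 CPM). In library 38, cell 7 (EVT) held 427 counts of EGFL7 (468 CPM). CDH5 in EXMC had 10.8 CPM in library 24 of E21 (others 0.373 to 1.85 CPM) and 19.1 CPM in library 17 of E25 (others 1.08 to 4.46 CPM), the library of the EXMC cell with all 8 members. MEF2C over all cells stood out in library 4 of E16 (1.75 CPM), library 43 of E18 (2.69 CPM), library 30 of E22 (12.8 CPM), library 8 of E23 (25.3 CPM) and library 22 of E25 (11.98 CPM), and the last 4 each hold at least 1 cell of the Blood cells class.

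The slopes of Extraembryonic Mesoderm and EXMC differed for KDR (-0.81 a day) and EGFL7 (-0.63 a day), by the test of the difference itself. Both differences were lost with the embryo as a term, and KDR also without E16 (-0.79, adjusted p = 0.0747).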

How the results depend on the processing

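Numbers of genes called over the whole table moved most for the trends. With sums per embryo edgeR called 0 genes over all cells, in EXMC, CTB and EVT (1543, 429, 791 and 767 at an unadjusted p under 0.05) and 2 in Extraembryonic Mesoderm; limma-voom with embryos as blocks called 197, 126, 12, 230 and 93. The library code as a term gave 1027, 536, 85, 56 and 55. No filter gave 1008 in EXMC, 1200 in CTB and 2047 in EVT, and DESeq2's Wald test gave 388, 795 and 1175 there and 707 in Extraembryonic Mesoderm. Without E16 the counts were 1087 over all cells, 57 in EXMC and 741 in CTB. Leaving out 1 library gave 1895 to 2577 over all cells, 72 to 245 in EXMC, 192 to 741 in CTB, 379 to 806 in EVT and 109 to 1393 in Extraembryonic Mesoderm. EVT without cluster 18, a fit with no E25 library, gave 82. Slope differences gave 609 (no filter), 7 (embryo as a term) and 181 (without E16) for Extraembryonic Mesoderm and EXMC, and 354, 81 and 7 for EVT and CTB. For class contrasts, 20 cells per sum gave 513 for Extraembryonic Mesoderm over EXMC, 3838 for EVT over Extraembryonic Mesoderm and 1778 for EXMC over the others, and sums per embryo gave 1058 for the first. Leaving out 1 embryo gave 1062 to 1876 for Extraembryonic Mesoderm over EXMC, 3932 to 5143 for EVT over CTB and 2676 to 6293 for EVT over Extraembryonic Mesoderm. Cells with several members outside Blood cells were 39 at 2 counts per member, 565 at 3 members, 33 at 5 members and 10 after thinning.

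Direction turned in 15 cases, and the cause was not tested. For Extraembryonic Mesoderm over EXMC these were KDR without E20 (-0.12; 1.71 without E21, the other end over embryos), EGFL7 per embryo (-0.31) and without E20 (-0.42, and 0.85 without E21), and CDH5 without 4 cells of library 35 (-0.51), per embryo (-0.085) and without E20 (-0.22, and 0.66 without E23). TIE1 in EVT over Extraembryonic Mesoderm was 2.00 without E20 and -2.83 without E23. With the library code as a term the slopes were -0.050 (KDR, EXMC), 0.25 (CDH5, EXMC), -0.030 (EGFL7, CTB), 0.72 (CDH5, CTB) and 0.12 (EGFL7, Extraembryonic Mesoderm). CDH5 in EXMC was 0.051 without E16 and -0.11 to 0.029 without single libraries (highest without library 6 of E16), and KDR in CTB was -0.0083 to 0.28 (lowest without library 17 of E25). EVT over CTB kept its direction for KDR, EGFL7, MEF2C, TIE1 and CDH5 in every alternative run. Each class over the mean of the others was not run with the Wald test or without single embryos. Between days, no paired analysis was possible because replicate numbers are not shared, while class contrasts were paired within libraries. Low counts of TIE1, PLVAP, MMRN1, MYCT1 and MEF2C outside Blood cells limit what their differences can show.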

Other observations

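Libraries 26 (55 cells) and 27 (94 cells), which have no agreed day, held no cell of the Blood cells class. Library 26 had 40.3 CPM of KDR, 149 CPM of EGFL7 and 3.34 CPM of CDH5. Library 27 had 45.3 CPM of KDR, 54.3 CPM of EGFL7 and 30.7 CPM of CDH5. TIE1 was at 0 and 0.0822 CPM in them and MYCT1 had no count in either.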
